A study of Caenorhabditis elegans with 15 samples.

Results

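The genes described here break down propionyl-CoA in the nematode *Caenorhabditis elegans*, together with a nuclear receptor that regulates them. Of 10 listed genes, 7 were found among the 16196 genes of the expression table, 5 by their symbol in the protein annotation (acdh-1, pcca-1, pccb-1, mmcm-1 and nhr-10) and 2 by a sequence name that RefSeq pairs with the symbol (F09F7.4 is hach-1 and Y38F1A.6 is hphd-1). The other 3, ech-6, alh-8 and nhr-68, were not analysed here. The set was chosen because acdh-1 stood far higher in sucrose-treated than in control nematodes, with no numeric threshold, so the sucrose against control values below are a description and no test of them is given.

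RNA was sequenced from whole bodies of wild type N2 nematodes at the L4 stage, the last larval stage, which were grown on *Escherichia coli* OP50. Each of the 5 groups had 3 libraries: control (no addition), suc (400 mM sucrose), ste (500 stearic acid), suc-ste (both at those doses) and suc-ste-res (both plus 500 resveratrol). The unit of the stearic acid and resveratrol doses is mg/mL in the sample labels and μg/mL in the study's methods, and a supplementary file title of the study names a different, micromolar resveratrol concentration, so the resveratrol dose is uncertain. Stearic acid was dissolved in ethanol and resveratrol in dimethyl sulfoxide, and whether the control medium held these solvents is not given in the sources used here, so solvent and compound cannot be told apart. The labels do not say whether the 3 libraries of a group came from separate cultures (the study calls them biological replicates), so p-values measure the spread between these samples.

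Library totals ran from 19433436 to 21400063 counts (median 20319650), and the mean correlation of a library with the others of its group ran from 0.975 (control replicate 3) to 0.988. Summed CPM (counts scaled by the TMM-normalised library size) of 6 intestinal markers was 971 to 1433 in control, 929.9 to 949.7 in ste, 1175 to 1231 in suc, 1087 to 1291 in suc-ste and 1101 to 1181 in suc-ste-res. Single intestinal markers moved in opposite directions: in ste against control ges-1 rose 2.49-fold and pept-1 fell 2.87-fold (edgeR's quasi-likelihood adjusted p = 7.46e-05 and 0.000107), and in suc-ste against ste only pho-1 of the 6 was called, 2.61-fold higher (edgeR's quasi-likelihood adjusted p = 9.54e-07). In suc against control ges-1 and pho-1 were called higher and pept-1 lower. Summed CPM of the yolk genes vit-2 and vit-5, markers of the adult stage, was 2030.0 to 2986 in control, 4152 to 5400.0 in ste, 6022 to 6609 in suc, 3093 to 4125 in suc-ste and 3976 to 5423 in suc-ste-res. Most of this sum is vit-2, at a mean CPM of 1753 in control and 4303 in ste, whereas vit-5 was at 633 and 456, with a log2 difference of -0.49 ± 0.18 (SE, edgeR's quasi-likelihood adjusted p = 0.0662). In suc against control both rose, by 1.54 for vit-2 and 0.89 for vit-5 on the log2 scale. Both had an edgeR quasi-likelihood adjusted p of 0.05 or less, though the vit-5 ranges overlapped. In suc-ste against control the log2 difference was 0.79 for vit-2 and -0.23 for vit-5. For 3 hypodermal markers the summed CPM was 248 to 275 in control, 161 to 183 in ste, 370.2 to 389.9 in suc, 389 to 479 in suc-ste and 374 to 474 in suc-ste-res. These too differed singly: in suc against control rol-6 was called higher (2.24-fold) and bli-1 lower (2.02-fold), in ste against control bli-1 fell 2.85-fold (edgeR's quasi-likelihood adjusted p = 7.52e-06), and in suc-ste against ste rol-6 rose 3.19-fold (edgeR's quasi-likelihood adjusted p = 2.13e-06). Of 2 body wall muscle, 3 neuron, 2 germline and 2 pharynx markers, none was called in suc-ste against ste. Without the fold minimum 2, 1, 0 and 0 of them passed, beside 34.1% of all genes. The muscle markers were lower, with a log2 difference of -0.70 for myo-3 and -0.55 for unc-15 (edgeR's quasi-likelihood adjusted p = 0.00134 and 0.00162). No marker gene was at 0 in every library. In whole bodies, a change in the share of a cell type or in its RNA cannot be told apart from a change within each cell, and the part of these markers in the results was not tested.

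Propionyl-CoA arises from the breakdown of branched-chain amino acids, of some other amino acids and of odd-chain fatty acids, and its acid, propionate, is toxic when it accumulates. In the canonical route, a carboxylase built from the subunits PCCA-1 and PCCB-1, an epimerase (MCE-1) and a mutase that needs vitamin B12 (MMCM-1) turn it into succinyl-CoA, which enters the citric acid cycle. Nematodes have a second route, the propionate shunt, which needs no vitamin B12: ACDH-1 oxidises propionyl-CoA, ECH-6 hydrates the product, HACH-1 removes coenzyme A, HPHD-1 oxidises the 3-hydroxypropionate that results and ALH-8 completes the conversion to acetyl-CoA. The nuclear receptors NHR-10 and NHR-68 switch on shunt genes when propionate accumulates, and acdh-1 is widely used as a reporter of low vitamin B12.

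The first shunt gene, acdh-1 (gene1555), lies on chromosome I from 6497436 to 6499560 on the plus strand and has 7 exons (WBcel235, exons from Ensembl release 115). Its counts were 29, 21 and 18 in the control libraries, equal to 1.55, 1.18 and 0.966 FPKM (fragments per kilobase of exon, normalised to sequencing depth, a level that can be compared between genes). With stearic acid alone it was at 17.6, 12.5 and 17.7 FPKM, and with sucrose alone at 144, 231 and 312 FPKM. With both it was at 171, 129 and 59.5 FPKM, and with resveratrol added at 156, 93.4 and 184 FPKM. The libraries thus fell into 3 levels that did not overlap: control lowest, stearic acid between, and the 9 sucrose-containing libraries on top, with the last 3 groups overlapping one another. In control nematodes acdh-1 stood above 22.3% of all genes by mean FPKM, in ste above 55.01%, and in suc above 94.1%.

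As a description, acdh-1 was 195-fold higher in suc than in control (log2 difference 7.61 ± 0.36, SE), rank 2 of 12745 genes tested. The size of this fold rests on the low control level: on the log2(FPKM + 1) scale the difference was 6.63, and leaving out 1 library gave 7.29 to 7.86. The same comparison gave 12.7-fold for ste (log2 3.66 ± 0.26, rank 16 of 12772) and 105-fold for suc-ste (log2 6.71 ± 0.44, rank 3 of 12781). These 3 differences share the control libraries, which the choice of acdh-1 used. The remaining comparison of sucrose, suc-ste against ste, used none of the libraries behind that choice. Earlier results of these data were known when this comparison was picked, so its p-value is not free of selection. There acdh-1 rose 8.21-fold, by 3.04 ± 0.31 (SE) on the log2 scale (95% interval 2.37 to 3.71, edgeR's quasi-likelihood test, Benjamini-Hochberg adjusted p = 1.23e-05 over 12714 genes, 3 libraries against 3). Every suc-ste library lay above every ste library. The log2 change was 2.70 without suc-ste replicate 1 and 3.37 without suc-ste replicate 3, the library with the lowest acdh-1 level of the sucrose-containing ones.

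**Figure D1:**
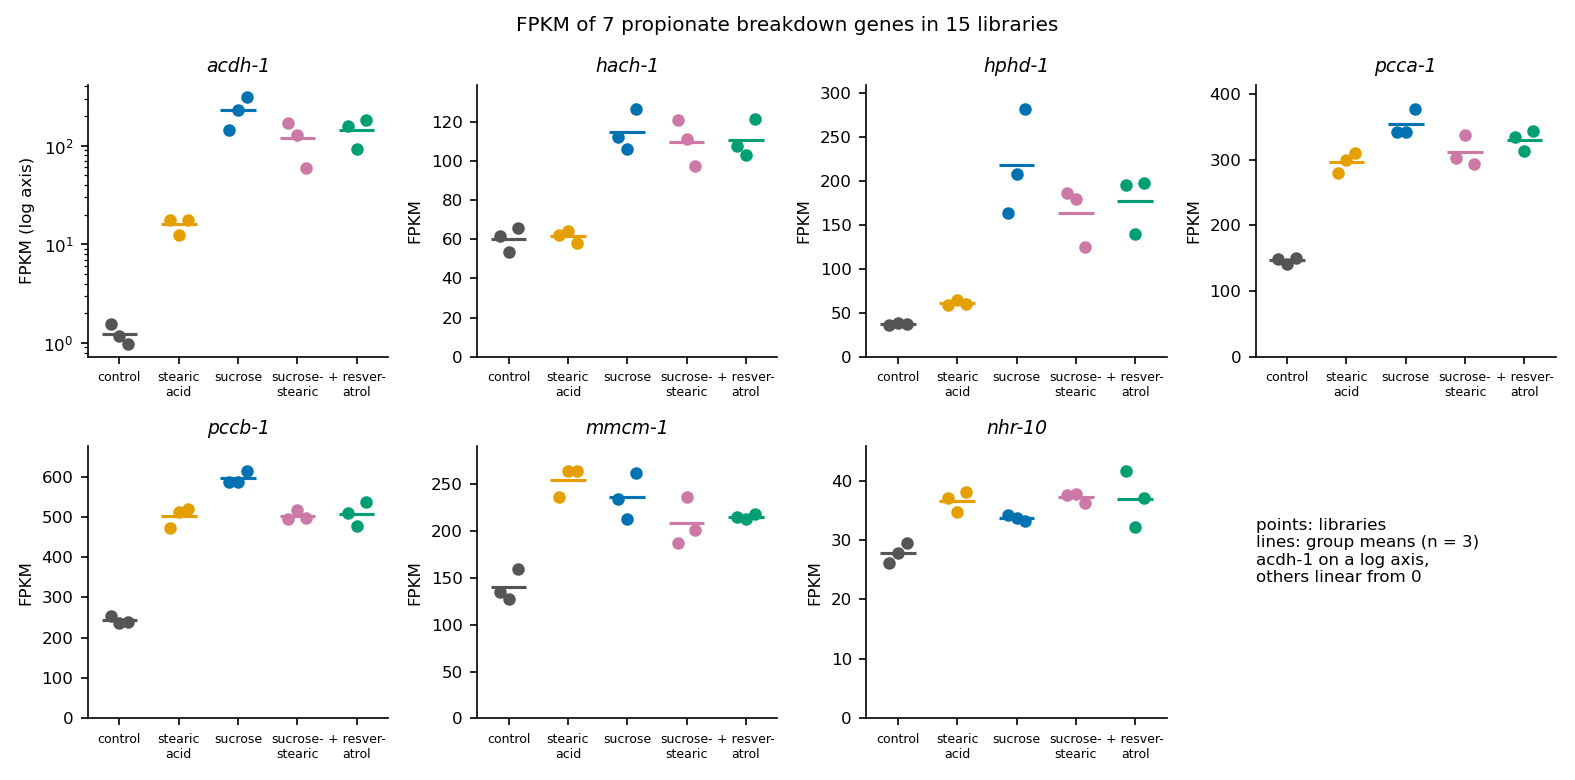
FPKM of the 7 genes in each of the 15 libraries (points) with group means (lines, n = 3). The vertical axis is logarithmic for acdh-1 and linear from 0 otherwise. acdh-1, hphd-1 and hach-1 are highest in the groups with sucrose, and acdh-1 and hphd-1 are also raised by stearic acid alone. pcca-1, pccb-1 and mmcm-1 are raised by stearic acid alone to near their level with sucrose. The highest means of pcca-1 and pccb-1 are those with sucrose alone.

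The third shunt step is catalysed by HACH-1, a hydrolase (gene10842, chromosome III, 5555450 to 5557318, plus strand, 5 exons). Its FPKM was 61.9, 53.6 and 65.6 in control and 62.1, 64.1 and 58.1 in ste. In suc it was 112, 106 and 126 FPKM, in suc-ste 121, 111 and 97.2, and in suc-ste-res 107, 103 and 122. The control and ste libraries overlapped, and all 9 sucrose-containing libraries lay above all 6 others. With stearic acid alone the log2 difference from control was -0.08 ± 0.13 (SE, 95% interval -0.37 to 0.21, edgeR's quasi-likelihood adjusted p = 0.700). Adding sucrose to stearic acid gave a log2 difference of 0.99 ± 0.10 (SE), or 1.99-fold (edgeR's quasi-likelihood adjusted p = 1.23e-05), just short of the 2-fold minimum used for a call. It passed that minimum in 3 of the 6 fits that left out 1 library, at 1.03 without ste replicate 1, 1.02 without ste replicate 2 and 1.08 without suc-ste replicate 3.

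The fourth step belongs to HPHD-1, the 3-hydroxypropionate dehydrogenase (gene8830, chromosome II, 12994354 to 12996571, minus strand, 8 exons in its longest transcript). Its FPKM was 35.7, 38.2 and 37.9 in control and 59.2, 64.9 and 60.4 in ste. It reached 164, 208 and 282 FPKM in suc, 187, 180.1 and 125 in suc-ste, and 195, 139 and 198 in suc-ste-res. As with acdh-1, control, ste and the sucrose-containing libraries formed 3 levels without overlap. In suc-ste against ste hphd-1 rose 2.68-fold, by 1.42 ± 0.13 (SE) on the log2 scale (edgeR's quasi-likelihood adjusted p = 4.4e-06). In ste against control its log2 difference was 0.69 ± 0.12 (SE), or 1.61-fold, with an edgeR quasi-likelihood adjusted p of 0.00154, under the fold minimum.

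Within each of the 3 sucrose-containing groups, acdh-1 and hphd-1 ordered the libraries alike by FPKM, and other members shared part of this order. Replicate 3 was highest for both in suc, replicate 1 in suc-ste and replicate 3 in suc-ste-res, and the lowest were replicates 1, 3 and 2 in the same order of groups. In suc-ste-res hach-1, pcca-1, pccb-1 and mmcm-1 had the same order, and in suc-ste hach-1 did. In suc, replicate 3 was also highest for hach-1, pcca-1, pccb-1 and mmcm-1, but replicate 2 was their lowest. Both genes also varied more in those groups than the others did. The SD was 36.5% of the mean FPKM for acdh-1 and 27.4% for hphd-1 in suc, against 9.08% for hach-1, 5.64% for pcca-1 and 2.69% for pccb-1. The FPKM ratio of acdh-1 to hphd-1 was not constant: its median was 0.0309 in control, 0.294 in ste, 1.11 in suc, 0.715 in suc-ste and 0.801 in suc-ste-res. From control to suc, acdh-1 moved from a small share of the hphd-1 level to about the same level. The choice of the set used this rise of acdh-1, so the change in the ratio is a description.

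The carboxylase genes pcca-1 (gene43377, chromosome X, 7657542 to 7660986, minus strand, 7 exons) and pccb-1 (gene41609, chromosome X, 3089549 to 3092437, plus strand, 4 exons) followed another pattern. The FPKM of pcca-1 was 149, 141 and 151 in control and 280.3, 299.5 and 310.3 in ste. It was 343, 342 and 377 in suc, 302, 338 and 294 in suc-ste, and 334, 313 and 343 in suc-ste-res. Every treated library lay above every control library, the ste and suc-ste libraries overlapped, and the suc libraries lay above those of ste. For pccb-1 the FPKM was 254, 237 and 239 in control, 473, 513 and 520.2 in ste, 587, 587 and 615 in suc, 495, 518 and 498 in suc-ste, and 511, 477 and 536 in suc-ste-res. The gene pccb-1 overlaps the exons of wrt-2 on the opposite strand by 43 bp, and whether counting used the strand is not given in the sources used here.

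Stearic acid alone raised both subunits about 2-fold. The log2 change from control was 1.03 ± 0.10 (SE) for pcca-1, with an edgeR quasi-likelihood adjusted p of 3.15e-05. For pccb-1 it was 1.03 ± 0.10 (SE), with an edgeR quasi-likelihood adjusted p of 2.7e-05. Adding sucrose to stearic acid left no difference past the test: the log2 difference of suc-ste from ste was 0.07 for pcca-1 (95% interval -0.11 to 0.25, edgeR's quasi-likelihood adjusted p = 0.535) and 0.03 for pccb-1 (95% interval -0.13 to 0.19, edgeR's quasi-likelihood adjusted p = 0.803). The bounds of these intervals lie well below the 2-fold change, 1 on the log2 scale, used for a call. The pcca-1 to pccb-1 FPKM ratio stayed between 0.583 and 0.657 over all 15 libraries (median 0.596).

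The mutase gene mmcm-1 (gene10307, chromosome III, 3903185 to 3907687, minus strand, 6 exons) encodes the step that needs vitamin B12. Its FPKM was 135, 127 and 159 in control, 236, 264 and 264 in ste, 234, 213 and 263 in suc, 188, 236 and 201 in suc-ste, and 215, 213 and 218 in suc-ste-res. All treated libraries lay above the control libraries, and the ste and suc-ste ranges met at 236 FPKM. In ste against control the log2 difference was 0.82 ± 0.11 (SE), or 1.77-fold, with an edgeR quasi-likelihood adjusted p of 0.000293, under the fold minimum. In suc-ste against ste it was -0.20 ± 0.09 (SE, edgeR's quasi-likelihood adjusted p = 0.102). Relative to pcca-1, the median FPKM ratio of mmcm-1 was 0.906 in control, 0.852 in ste, 0.682 in suc, 0.684 in suc-ste and 0.643 in suc-ste-res.

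The receptor gene nhr-10 (gene11335, chromosome III, 7112295 to 7115438, minus strand, 7 exons) was the least variable of the 7 between groups. It was at 26.2, 27.9 and 29.5 FPKM in control, 37.1, 34.7 and 38.1 in ste, 34.2, 33.7 and 33.3 in suc, 37.5, 37.8 and 36.2 in suc-ste, and 41.7, 32.1 and 37.1 in suc-ste-res. Every treated library lay above every control library, but the distance was small. The log2 difference from control was 0.36 ± 0.13 (SE) in ste (edgeR's quasi-likelihood adjusted p = 0.0708) and 0.46 ± 0.11 in suc-ste (edgeR's quasi-likelihood adjusted p = 0.0174, under the fold minimum). Between suc-ste and ste it was 0.09 ± 0.09 (SE, edgeR's quasi-likelihood adjusted p = 0.463).

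**Figure D2:**
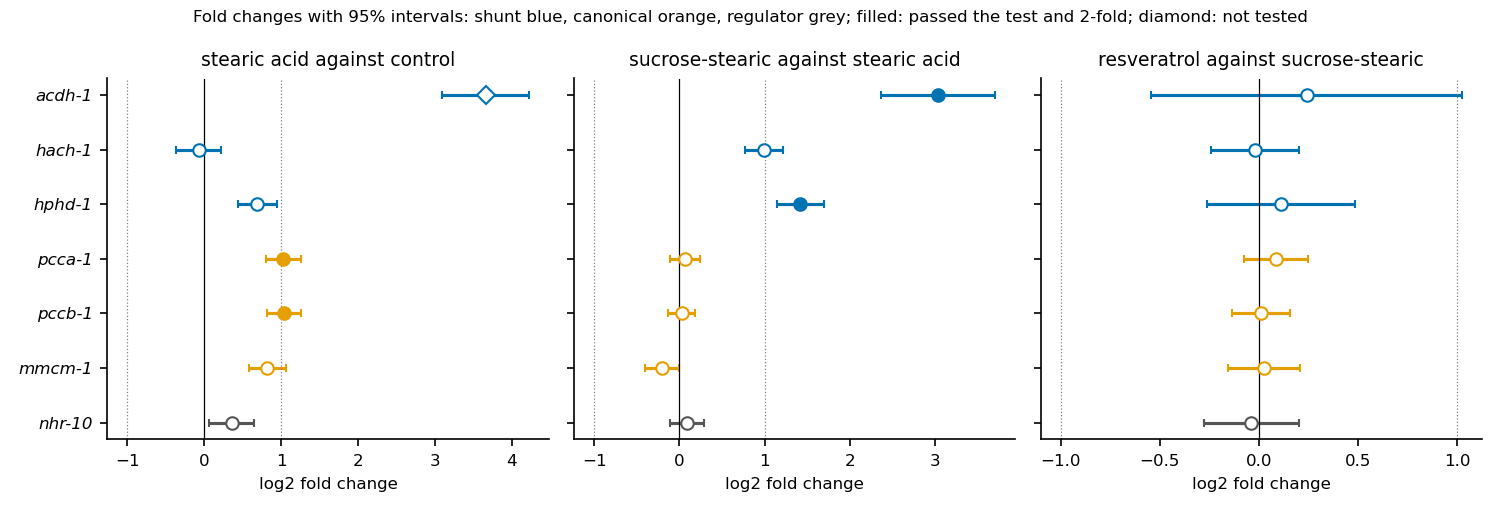
Log2 fold change (horizontal axis) with 95% interval for each gene in 3 comparisons of 3 libraries against 3. Shunt genes are blue, canonical genes orange and nhr-10 grey, dotted lines mark a 2-fold change, filled symbols passed both criteria, and the diamond (acdh-1 in ste against control) was not tested. pcca-1 and pccb-1 are the filled points for stearic acid alone, acdh-1 and hphd-1 those for sucrose added to stearic acid, and no point is filled for resveratrol.

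Counted over the set, a gene was called where its adjusted p was at most 0.05 and the fold change reached 2. In suc against control, 4 of 7 were higher by these criteria (acdh-1, hphd-1, pcca-1 and pccb-1), where 3.78% of all tested genes were called higher. This contrast chose the set, and nothing is read from the count. In ste against control, 2 of 6 rose (pcca-1 and pccb-1; acdh-1 left out), against 3.41% of all genes called higher. Without the fold minimum 4 of the 6 passed (hphd-1 and mmcm-1 in addition), against 22.6% of all genes in either direction. In suc-ste against control, 3 of 6 rose (hphd-1, pcca-1 and pccb-1), against 4.31%, and 6 of 6 passed without the fold minimum, against 19.9%. There hphd-1 was up 4.36-fold, pcca-1 2.16-fold and pccb-1 2.11-fold (edgeR's quasi-likelihood adjusted p = 1.18e-05, 3.17e-05 and 3.09e-05). In suc-ste against ste, 2 of 7 rose (acdh-1 and hphd-1), against 3.75%, and none fell, against 6.2%. Without the fold minimum hach-1 passed as well, 3 of 7 against 34.1%. The median log2 difference of all 7 genes was 0.82 in ste against control and 0.09 in suc-ste against ste. Over all genes tested it was -0.03 and 0.01. The ste against control median includes acdh-1, whose choice used the control libraries, so it is a description. The comparisons with control share its 3 libraries.

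The factorial part of the design asks whether the change with both additions equals the sum of the single changes on the log2 scale. For pcca-1 the single changes, 1.28 for sucrose (a description) and 1.03 for stearic acid, sum to 2.31, whereas the change with both was 1.11. For pccb-1 the sum was 2.33 and the change with both 1.07. The interaction term, fitted over the 12 libraries without resveratrol, was -1.22 ± 0.11 (SE) for pcca-1 (edgeR's quasi-likelihood adjusted p = 1.47e-05). It was -1.27 ± 0.10 for pccb-1 (edgeR's quasi-likelihood adjusted p = 4.44e-06), -1.13 ± 0.24 for hphd-1 (edgeR's quasi-likelihood adjusted p = 0.00757) and -0.96 ± 0.14 for mmcm-1 (edgeR's quasi-likelihood adjusted p = 0.000542). These 4 of 6 tested genes passed at an adjusted p of 0.05 with no fold minimum, as did 8.59% of all 13094 genes in the negative direction. The term contains the suc against control difference, the contrast that chose the set, and a high level in suc makes it more negative. Neither the p-values of members nor this count are therefore free of that choice. For hach-1 the term was 0.07 ± 0.15 (SE, edgeR's quasi-likelihood adjusted p = 0.783) and for nhr-10 -0.22 ± 0.12 (edgeR's quasi-likelihood adjusted p = 0.237). The acdh-1 term, -4.58, is a description. The yolk gene vit-2 had a negative term too, -2.07 ± 0.21 (edgeR's quasi-likelihood adjusted p = 3.46e-05), and that of vit-5 was -0.68 ± 0.32 and did not pass (edgeR's quasi-likelihood adjusted p = 0.160). The part of these genes in the results was not tested.

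**Figure D3:**
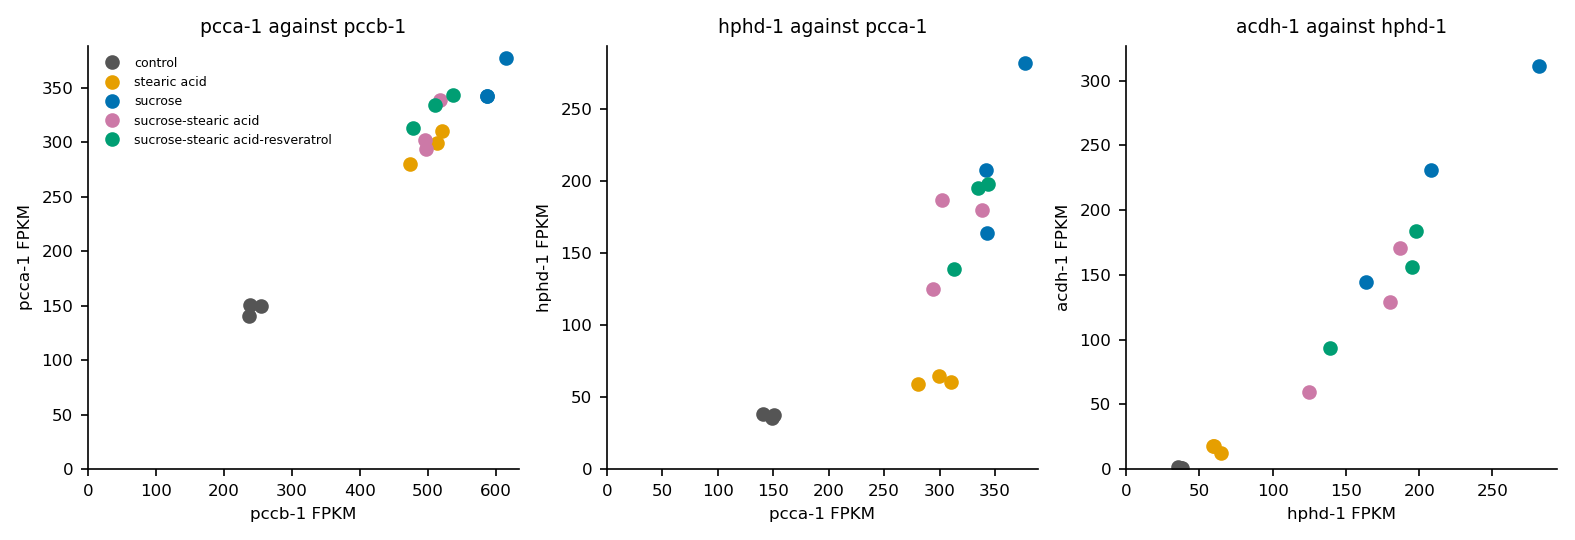
FPKM of one gene against another in the 15 libraries, coloured by group: pcca-1 against pccb-1, hphd-1 against pcca-1, and acdh-1 against hphd-1. The carboxylase subunits keep a ratio of 0.583 to 0.657. In the middle panel the stearic acid libraries are raised along pcca-1, with hphd-1 at 59.2 to 64.9 against 35.7 to 38.2 in control. The sucrose-containing libraries are raised along pcca-1 and further along hphd-1.

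The hphd-1 to pcca-1 FPKM ratio separates these patterns. Its range was 0.239 to 0.271 in control, 0.195 to 0.217 in ste, 0.477 to 0.747 in suc, 0.425 to 0.618 in suc-ste and 0.444 to 0.584 in suc-ste-res. The ste ratios lay below those of control, and the ratios of the sucrose-containing groups lay above both and overlapped one another.

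Stearic acid added to sucrose (suc-ste against suc) moved none of the 6 tested genes past the criteria, where 0.215% of all genes were called. By unadjusted p below 0.05 there was 1, pccb-1, with a log2 difference of -0.22 ± 0.06 (SE, edgeR's quasi-likelihood unadjusted p = 0.00572, adjusted p = 0.168), and DESeq2 and limma called 0. The others ranged from -0.42 for hphd-1 (edgeR's quasi-likelihood adjusted p = 0.432) to 0.16 for nhr-10 (edgeR's quasi-likelihood adjusted p = 0.467). The acdh-1 difference, -0.89 ± 0.36 (SE), is a description, and its ranges in the 2 groups overlapped.

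Resveratrol added to both (suc-ste-res against suc-ste) moved none of the 7 genes past the criteria, where 0.0159% of all genes were called. None had an unadjusted p below 0.05 in edgeR's quasi-likelihood test, and DESeq2 and limma called 0. The log2 difference was 0.24 for acdh-1 (95% interval -0.54 to 1.02, edgeR's quasi-likelihood adjusted p = 0.999), so a 2-fold rise was not excluded for this gene. It was 0.11 for hphd-1 (95% interval -0.26 to 0.49) and between -0.04 and 0.08 for the other 5, whose intervals lay within -0.28 and 0.24.

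Genes next to these in the pathway were counted in lists. Of 9 further genes of the canonical route and of vitamin B12 (cobalamin) handling, 6 were tested. In ste against control 1 of the 6 rose (3.41% of all genes did), and 3 passed without the fold minimum (22.6% of all genes did). The gene that rose was pmp-5, which encodes a transporter of the ABC family implicated in vitamin B12 handling. Its FPKM was 7.95, 8.38 and 7.19 in control, 20.34, 21.0 and 20.9 in ste, 32.5, 37.9 and 46.7 in suc, 47.8, 36.5 and 26.9 in suc-ste, and 37.5, 31.5 and 50.4 in suc-ste-res. The log2 change in ste was 1.33 ± 0.14 (SE, edgeR's quasi-likelihood adjusted p = 5.5e-05), and in suc-ste against ste the difference was 0.97 ± 0.16, or 1.96-fold (edgeR's quasi-likelihood adjusted p = 0.000651), just under the fold minimum. Within the sucrose-containing groups its libraries stood in the same order as those of acdh-1 and hphd-1, an order that other members shared in part. None of the 6 was called in suc-ste against ste, although 5 passed without the fold minimum (as did 34.1% of all genes). The median log2 difference of the 6 was 0.29.

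The epimerase gene mce-1, named here after its values were seen because it encodes the step between the carboxylase and the mutase, was at 135 ± 16.3 FPKM (SD, n = 3) in control, 246 ± 29.1 in ste, 377 ± 13.1 in suc, 467 ± 28.9 in suc-ste and 389.6 ± 16.7 in suc-ste-res. In suc-ste against ste its log2 difference was 0.84 ± 0.10 (SE), or 1.79-fold (edgeR's quasi-likelihood adjusted p = 5.49e-05), under the fold minimum. Its interaction term was -0.64 ± 0.15 (edgeR's quasi-likelihood adjusted p = 0.0131) and that of pmp-5 was -1.34 ± 0.26 (edgeR's quasi-likelihood adjusted p = 0.00357). In suc-ste against control both mce-1 (3.09-fold) and pmp-5 (4.98-fold) rose, 2 of the 6, against 4.31% of all genes (edgeR's quasi-likelihood adjusted p = 1.17e-05 and 5.54e-05).

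Other acyl-CoA dehydrogenases, the enzyme family of ACDH-1, were counted in the same way. Of 13 listed, 8 were tested, and none was called in suc-ste against ste, although 7 passed without the fold minimum (as did 34.1% of all genes) and the median log2 difference was 0.51, beside 0.01 over all genes. In ste against control 1 of the 8 fell (4.48% of all genes did), acdh-5, by 1.02 ± 0.28 on the log2 scale (edgeR's quasi-likelihood adjusted p = 0.0244) at a level of 3.11 FPKM in control and 1.69 in ste. Its interaction term was positive, 1.67 ± 0.44 (SE, edgeR's quasi-likelihood adjusted p = 0.0214), as for 4 of the 8, where 7.05% of all genes had a positive term. How reads shared by similar family members were counted is not given in the sources used here, so the split between them is uncertain. Of 8 genes of branched-chain amino acid breakdown, 4 were tested (bcat-1, dbt-1, dld-1 and mccc-1). Which of these lie on the way to propionyl-CoA was not examined. None of the 4 was called in ste against control, suc-ste against control or suc-ste against ste. Without the fold minimum 2 of 4 passed in ste against control (22.6% of all genes), 4 of 4 in suc-ste against control (19.9%) and 2 of 4 in suc-ste against ste (34.1%). In suc-ste against control bcat-1, the aminotransferase gene, was 1.91-fold lower (edgeR's quasi-likelihood adjusted p = 0.000995), and the other 3 were 1.35-fold to 1.62-fold higher.

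The genes with the profile most like that of acdh-1, by Pearson's r of log2 CPM over the 15 libraries among 13176 other genes, were mdh-2 (a malate dehydrogenase, r = 0.990), clec-8 (a C-type lectin, 0.987), aco-1 (an aconitase, 0.986), pmp-5 (0.983) and C23H5.8 (0.982). These values are a description: the 15 points fall into the 5 groups, and the order depends on the measure, since Spearman's rank correlation shared 0 of these 5. Of the set, hphd-1 ranked 17 (0.972), pcca-1 210 (0.927), pccb-1 285 (0.912), hach-1 496 (0.872), nhr-10 1187 (0.750) and mmcm-1 1351 (0.724). By Spearman's coefficient hphd-1 ranked 4 (0.961). The profiles were alike in shape and not in size: from control to ste the log2 difference was 0.68 for mdh-2, 0.84 for clec-8, 0.84 for aco-1 and 1.92 for C23H5.8, beside 3.66 for acdh-1.

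**Figure D4:**
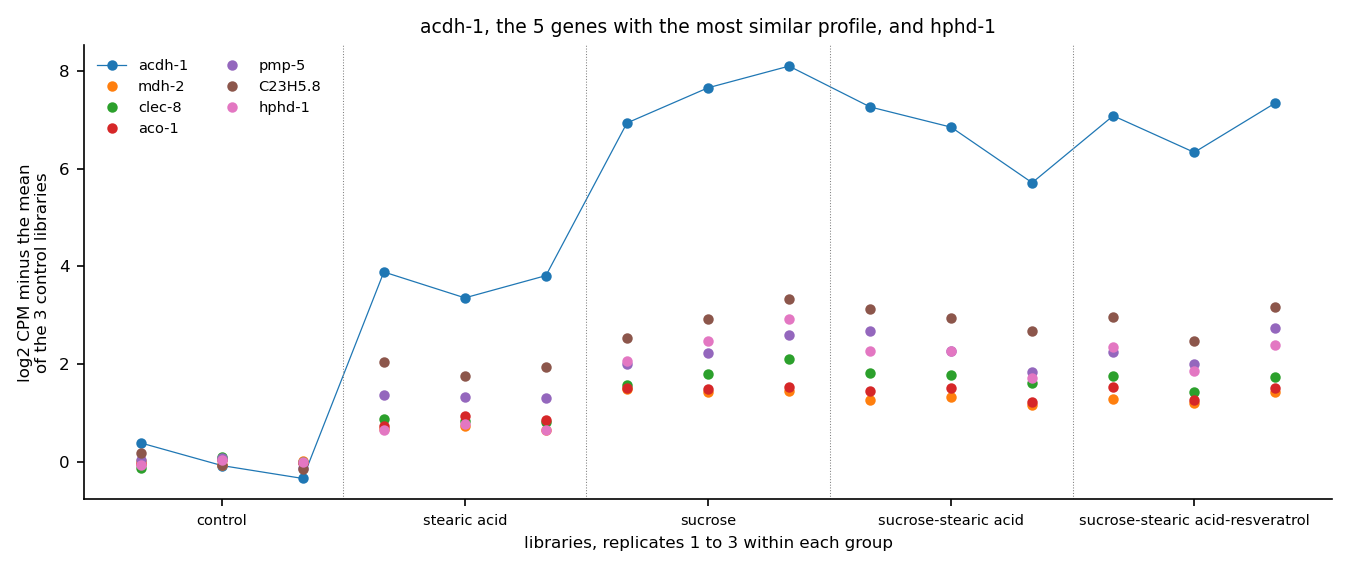
Log2 CPM minus the mean of the 3 control libraries (vertical axis) in the 15 libraries, grouped by treatment, for acdh-1 (joined points), the 5 genes with the most similar profile and hphd-1. All 7 step up from control to stearic acid and again to the sucrose-containing groups, and acdh-1 spans by far the widest range. The 5 genes were picked for their likeness to acdh-1 over these same libraries, so their shared steps follow from that choice.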

How the data were processed

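The deposited table holds raw read counts and FPKM per gene for 15 libraries. The authors removed rRNA, adapter and low-quality reads, mapped the rest with TopHat (also named in the submitters' processing notes) to the WBcel235 reference and obtained FPKM with Cufflinks; the tool behind the deposited counts, its strand setting and how reads matching several genes were assigned are not given in the sources used here. Gene names came from the protein annotation: 13634 rows by symbol, 1616 by a sequence name matched to RefSeq, and 946 with another or no name. The table's columns of comparisons and annotation other than names were not used.

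Counts were tested in R 4.3.3 with edgeR 4.0.16 (quasi-likelihood, TMM, filterByExpr) on the 6 libraries of each comparison, or 12 for the interaction, without a replicate block, with Benjamini-Hochberg adjustment over all genes tested. A call needed an adjusted p of 0.05 or less and a 2-fold change, thresholds taken from the study's methods; the interaction had no fold minimum. Levels compared between genes are FPKM, and intervals are 95%. The scripts were tested on simulated data. Alternatives were DESeq2 1.42.0, limma 3.58.1 on log2(FPKM + 1) or log2(FPKM + 0.1), RLE normalization, no low-count filter, other thresholds, 1 fit of all 15 libraries, a replicate block and each library left out.

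The members, lists and tests were chosen with earlier results of these data known. Genes named were the members, the 5 most like acdh-1, and list genes called in suc-ste against ste or ste against control (at most 4 a list). Named outside this rule, after their values were seen, were mce-1, the 4 branched-chain genes and the cell type markers. No member p is given for suc against control, nor for acdh-1 where the control or suc libraries enter. Same-numbered libraries deviated together in suc-ste against control (r of deviations from the group means 0.111, 0.188 and 0.342, all over 0.1). The p-values printed for it come from the fit without a replicate block, and the block was an alternative. In the other comparisons r ran from -0.31 to 0.08.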

Additional observations from a re-analysis of the deposited data

Results flagged for a closer look

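The stearic acid effect differed with and without sucrose for these genes, by the interaction term of edgeR's quasi-likelihood test over 12 libraries (log2 scale, negative where the effect was smaller with sucrose): pccb-1 at -1.275, pcca-1 at -1.217, hphd-1 at -1.131 and mmcm-1 at -0.963. Among the list genes it was -1.342 for pmp-5, -0.638 for mce-1 and 1.672 for acdh-5, and for the yolk gene vit-2 it was -2.069. For the members, the term contains the suc against control difference, which chose the set, so their values are not free of that choice. Groups of 3 libraries are too small to test single libraries as outlying.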

How the results depend on the processing

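Of 699 values of the members under alternatives, 687 kept their side of the criteria, 12 passed the criteria only under the alternative, and 0 lost them. Values that were not called could change sign and still be counted as kept. For hach-1 in ste against control the log2 difference was -0.08 in the main fit and 0.03 with limma on log2(FPKM + 1). Without a fold minimum, 4 of 6 genes were called in ste against control and 6 of 6 in suc-ste against control, in place of 2 and 3, since the criterion itself is wider. Leaving out 1 library gave 4 to 4 called in suc against control, 2 to 2 in ste against control, 3 to 4 in suc-ste against control, 2 to 3 in suc-ste against ste, 0 to 0 in the other comparisons and 4 to 4 for the interaction; the gene that entered was hach-1 (log2 1.00 without suc-ste replicate 3 against control). With the replicate number as a block, the counts were 4, 2, 3, 2, 0, 0 and 4. The block changed no call of a member, also in suc-ste against control, where same-numbered libraries deviated together. Among the genes most like acdh-1, Spearman's coefficient shared 0 of the 5.

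Counts over all genes moved more. Without a fold minimum they were 2346 (from 1170) in suc against control, 2889 (from 1007) in ste against control, 2538 (from 1223) in suc-ste against control and 4334 (from 1265) in suc-ste against ste. At an adjusted p of 0.01, ste against control gave 654 and the interaction 782 (from 2048). In suc-ste against suc, 27 genes became 4 without suc-ste replicate 2, 81 without suc replicate 3, 7 with the replicate block and 68 with DESeq2. In suc-ste-res against suc-ste, 2 became 0 without suc-ste replicate 1, 0 with the block and 10 with DESeq2, and the interaction fell to 1296 without suc-ste replicate 1. The cause was not tested where the criterion was unchanged. For acdh-1 in suc against control, 18 to 29 counts in the control libraries set the fold: the log2 difference was 7.61 in the counts and 6.63 on the log2(FPKM + 1) scale.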
